A study of Mus musculus with 12 samples.

Results

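Co-culture with endothelial cells was examined in neural progenitor cells (NPCs) that lack p53. All genes were compared between 3 libraries of p53-/- NPCs kept in co-culture and 3 libraries of p53-/- NPCs kept alone, which together make 6 of the 12 RNA-seq libraries of the series. The libraries were chosen by the column names of the count table, and libraries with the same experiment number (17_9, 25_9 or 1_10) form a pair. Of 24108 listed genes, 13745 passed a filter on low counts and were tested. The NPCs came from the subventricular zone (SVZ) of C57BL/6 mice at postnatal days 9 to 12. Those called p53-/- carried p53loxP/loxP alleles recombined in culture with an adenovirus that expresses Cre from the CMV promoter (Ad-CMV-iCre), and were used within a few passages. The p53+/+ NPCs, used here only for comparison, received the empty vector Ad-CMV-Null. The NPCs without bmvECs were plated on laminin. Co-cultured NPCs sat for 48 h on a monolayer of brain microvascular endothelial cells (bmvECs) from C57BL/6J mice, whose own p53 was intact, and were then lifted off by selective trypsinization. The NPCs in the p53-/- libraries, alone or in co-culture, therefore all received the same Cre virus, whereas any bmvECs carried over did not. Whether every NPC had recombined was not tested. The 3 libraries of a group are described as independent repeats. The p-values below measure the spread that remains once differences between experiments are taken out. It was estimated from all 12 libraries, those of p53+/+ NPCs included.

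In the SVZ, neural stem cells (type-B cells) are astroglia-like cells that touch blood vessels and divide rarely. When activated, they give rise to fast-dividing transit-amplifying cells and then to neuroblasts or oligodendrocytes. Contact with endothelial cells is a known signal for stem cell quiescence, a reversible state in which cell-cycle genes are low and glial genes are high. p53 is a transcription factor that restrains the cell cycle, among other ways through Cdkn1a, so the comparison asks how the transcriptome of NPCs responds to the endothelial monolayer when p53 is missing.

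The targeted gene was low in every p53-/- library. Trp53 stood at 11.7, 14.7 and 17.4 CPM (read counts scaled by library size) alone and at 18.4, 19.3 and 13.7 CPM in co-culture, in the order 17_9, 25_9 and 1_10, which is kept throughout. In p53+/+ NPCs it stood at 95.2 ± 14.2 CPM alone (SD, n = 3) and at 68.8 ± 8.84 CPM in co-culture. Cdkn1a, the cyclin-dependent kinase inhibitor p21, stood at 9.84, 4.74 and 31.2 CPM alone and at 21.7, 17.2 and 14.5 CPM in co-culture of p53-/- NPCs, against 405 ± 54.0 CPM in p53+/+ NPCs alone. Neither gene differed between the p53-/- groups beyond the spread of the libraries (Trp53, adjusted p = 0.219, and Cdkn1a, adjusted p = 0.464). This turned on experiment 1_10, since without it Trp53 was higher in co-culture by 0.53 on the log2 scale (adjusted p = 0.0201) and Cdkn1a by 1.47 (adjusted p = 0.00163). Total counts of the 6 libraries ranged from 18474243 to 21533978, and the markers of neural stem and progenitor cells (8 of 8 detected) summed to 9330 to 11700 CPM alone and to 9530 to 10100 CPM in co-culture.

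The p53-/- alone library of experiment 17_9 stood apart from the others of its group. In it, 374 tested genes were over 2-fold above the mean of both other alone libraries and 187 were over 2-fold below, against 26 to 36 above and 119 to 322 below for the others, whose comparison means include the library of 17_9. Of the 40 tested genes of ERK feedback and immediate early response, 26 were over 2-fold higher there. The examples that follow were picked after their values were seen. Ctgf, a secreted matrix-associated growth regulator, was at 488, 7.24 and 2.28 CPM in the 3 alone libraries, and Acta2, smooth muscle actin, was at 765, 63.6 and 33.1 CPM. The Notch target Hes5 went the other way, with 3.88, 43.8 and 22.3 CPM. In co-culture Ctgf was at 4.11, 3.06 and 2.28 CPM and was called lower (log2 fold change -3.62, adjusted p = 0.0402). Where a call named below changed without this library, or without all of experiment 17_9, the adjusted p without it is given. Leaving out the library alone leaves its co-culture partner unpaired, whereas leaving out the experiment keeps the 2 other pairs. The p53+/+ alone library of 17_9 lay apart from its group too. Its counts differed from those of 25_9 and 1_10 by 49.4 and 50.7 times the counting variance. The value between 25_9 and 1_10 was 13.3. In p53-/- NPCs alone the same values were 55.8, 62.6 and 29.5. What set the alone libraries of 17_9 apart was not tested.

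**Figure D1:**
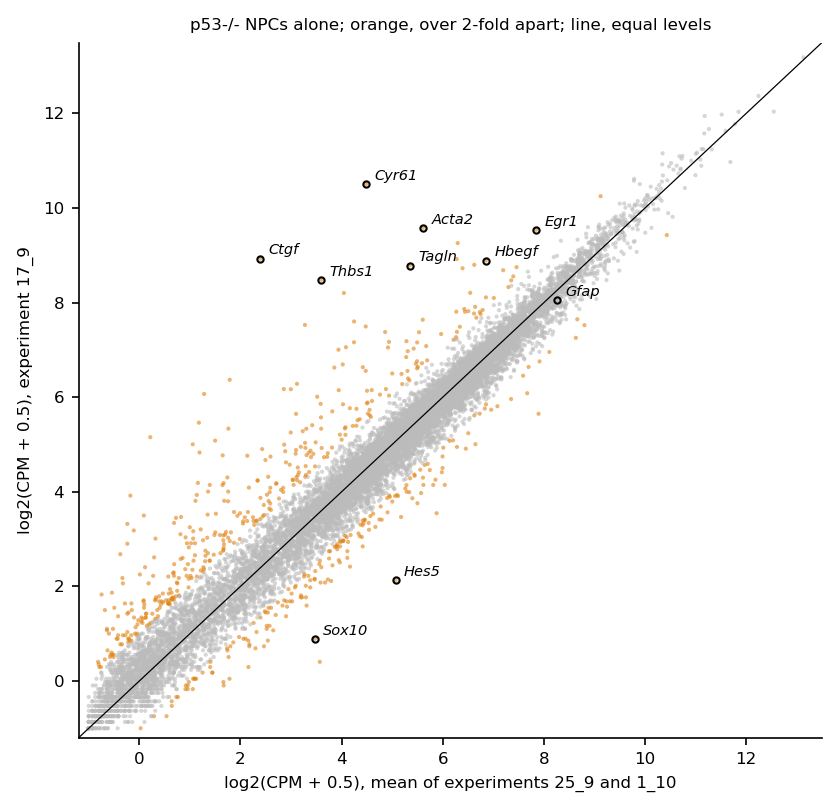
Levels of the tested genes in p53-/- NPCs alone, with the library of experiment 17_9 on the vertical axis and the mean of experiments 25_9 and 1_10 on the horizontal axis, both as log2(CPM + 0.5). Each point is a gene, the line marks equal levels, and orange points differ by over 2-fold: 374 lie above the line, Ctgf, Cyr61, Thbs1, Acta2 and Tagln farthest among the labelled genes, and 187 lie below it, Hes5 and Sox10 among them.

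Markers of the feeder cells rose in co-culture. Of the 33 genes of the endothelial list, 30 were tested, and 24 were called higher and 4 lower at an adjusted p under 0.05. Over all tested genes the corresponding shares were 24.3% higher (3335 genes) and 23.2% lower (3192 genes). Cdh5, the cadherin of endothelial junctions, was at 0.0485, 0.0455 and 0 CPM alone and at 24.99, 18.8 and 21.1 CPM in co-culture, which is 2 counts in all against 1263 (ratio 656, 95% exact interval 181 to 5430, counting error only). Lyve1, a hyaluronan receptor of some endothelial cells, had no count alone and 208 in co-culture, and so was at least 72.1-fold higher against a floor of 3 counts over the group. Pecam1, the adhesion molecule CD31, was at 0.485, 0.410 and 0.167 CPM alone and at 12.8, 8.14 and 10.8 CPM in co-culture (adjusted p = 2.36e-07). The 15 defining endothelial markers summed to 16.6 to 23.4 CPM alone and to 110 to 137 CPM in co-culture, and none of them was without a count in either group. Of the 4 members called lower, the lipid transporter Mfsd2a was at 233, 91.0 and 80.0 CPM alone and at 34.1, 46.4 and 48.2 CPM in co-culture. The groups overlapped for the other 3, the transporter Slco1a4 and the surface proteins Podxl and Cd93, and without the alone library of 17_9 the adjusted p of Slco1a4 was 0.339 and that of Podxl 0.304. Without the alone library of 17_9, 2 of the 30 were called lower. Markers of mural cells and fibroblasts (11 genes) summed to 101 to 134 CPM in co-culture and to 1230, 158 and 103 CPM alone, and those of microglia (7 genes) to at most 5.26 CPM, with Aif1 at 0 in all 6 libraries and Ptprc at 0 alone. Of the longer lists for these cells, 6 of 10 tested mural and fibroblast genes were called higher and 1 lower (Acta2), and 2 of 3 microglial genes were called higher. The part of these cells in the results below was not tested. In bulk RNA, fewer cells of a type and less RNA per cell cannot be told apart.

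Co-culture changed the level of many genes, and the large changes were mostly rises. Over 2-fold, 1456 genes were higher (10.6%) and 292 lower (2.12%). Over 8-fold, 188 were higher and 6 lower, and over 32-fold 32 were higher and none lower, counts that include the endothelial markers. Of the genes called higher, 3317 of 3335 were higher in all 3 pairs, and of those called lower, 3176 of 3192 were lower in all 3. The calls were made from these same pairs, so this agreement is not separate support. Over all tested genes, 9673 of 13745 moved the same way in all 3 pairs. The median log2 fold change was 0.89 for genes called higher, -0.56 for genes called lower and -0.006 over all tested genes. In the first principal component of the 6 libraries, which took 69.3% of the variance, all co-culture libraries lay on the other side of 0 from all alone libraries. The pairs were not alike in size: 1044 genes were over 2-fold lower in the pair of 17_9, against 105 and 115 in the others. Without the alone library of 17_9, 2680 genes were called higher and 2523 lower, and 4992 of the 6527 calls were kept with their direction.

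**Figure D2:**
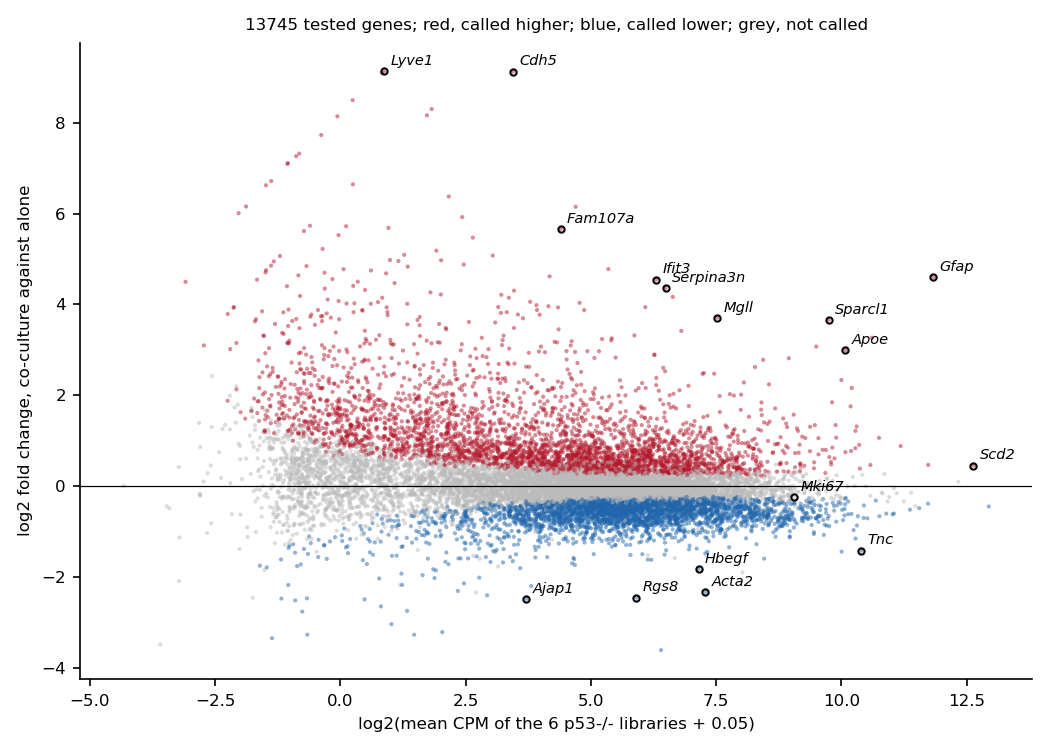
Log2 fold change of co-culture against alone in p53-/- NPCs (vertical axis) against the mean level of each gene in the 6 libraries, as log2(mean CPM + 0.05) (horizontal axis). Red points (3335 genes) were called higher and blue points (3192 genes) lower, and the rises reach farther from 0 than the falls. Values of genes with few or no counts alone, such as Lyve1 and Cdh5, depend on the prior count of the fit.

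Among the 10 largest called rises above a mean log2 CPM of 2 was Fam107a, an actin-associated gene of radial glia. It was at 1.07, 0.865 and 0.499 CPM alone and at 56.7, 32.5 and 34.8 CPM in co-culture, a log2 fold change of 5.67 ± 0.25 (SE, adjusted p = 4.21e-08). Others were glial genes, namely Gfap, Serpina3n (a secreted protease inhibitor of reactive astrocytes) and Lgi4 (a secreted glial protein), and interferon-inducible genes, namely Ifit3, Trim30a, Oasl2 and the RIKEN-named I830012O16Rik. Ggta1, a galactosyltransferase of the Golgi, also belonged to them, with 0.775, 0.865 and 1.17 CPM alone and 22.3, 17.5 and 12.7 CPM in co-culture. In all 10, every co-culture library was above every alone library, as in 23.3% of all tested genes. The 10 were chosen by their values in these libraries, so this is not separate support.

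The largest called falls above a mean log2 CPM of 2 and lower in all 3 pairs were smaller. Ctgf, whose fall was given above, was level in the pair of 1_10 and is not among them. Ajap1, a protein of adherens junctions, was at 31.9, 20.5 and 14.4 CPM alone and at 5.61, 3.47 and 2.71 CPM in co-culture (log2 fold change -2.49 ± 0.17, adjusted p = 6.55e-07). Rgs8, a regulator of G-protein signaling, was at 154, 74.6 and 78.1 CPM alone and at 16.9, 16.1 and 21.1 CPM in co-culture. Pmepa1, an inhibitor of TGFβ signaling, was at 28.8, 20.5 and 19.5 CPM alone and at 3.26, 6.38 and 5.31 CPM in co-culture. All 10 were again chosen by their values in these libraries, and 21.5% of all tested genes were lower without overlap. The groups did not overlap for any of the 10, which also include Rai2, Sertm1 and Ube2ql1. The other 4 lost their calls without the alone library of 17_9 but kept them without all of experiment 17_9, with smaller changes. The EGF receptor ligand Hbegf was at 473, 110 and 120 CPM alone and at 39.3, 52.8 and 57.4 CPM in co-culture, a log2 fold change of -1.83 (adjusted p = 0.00971) that became -1.36 (0.0516) without the library and -1.05 (1.32e-07) without the experiment. The adjusted p of Acta2 was 0.0326, and became 0.171 and 0.000301. That of the small Maf factor Maff was 0.00865, and became 0.0536 and 5.66e-05, and that of the steroid dehydrogenase Akr1c14 was 0.00778, and became 0.0724 and 0.00771.

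**Figure D3:**
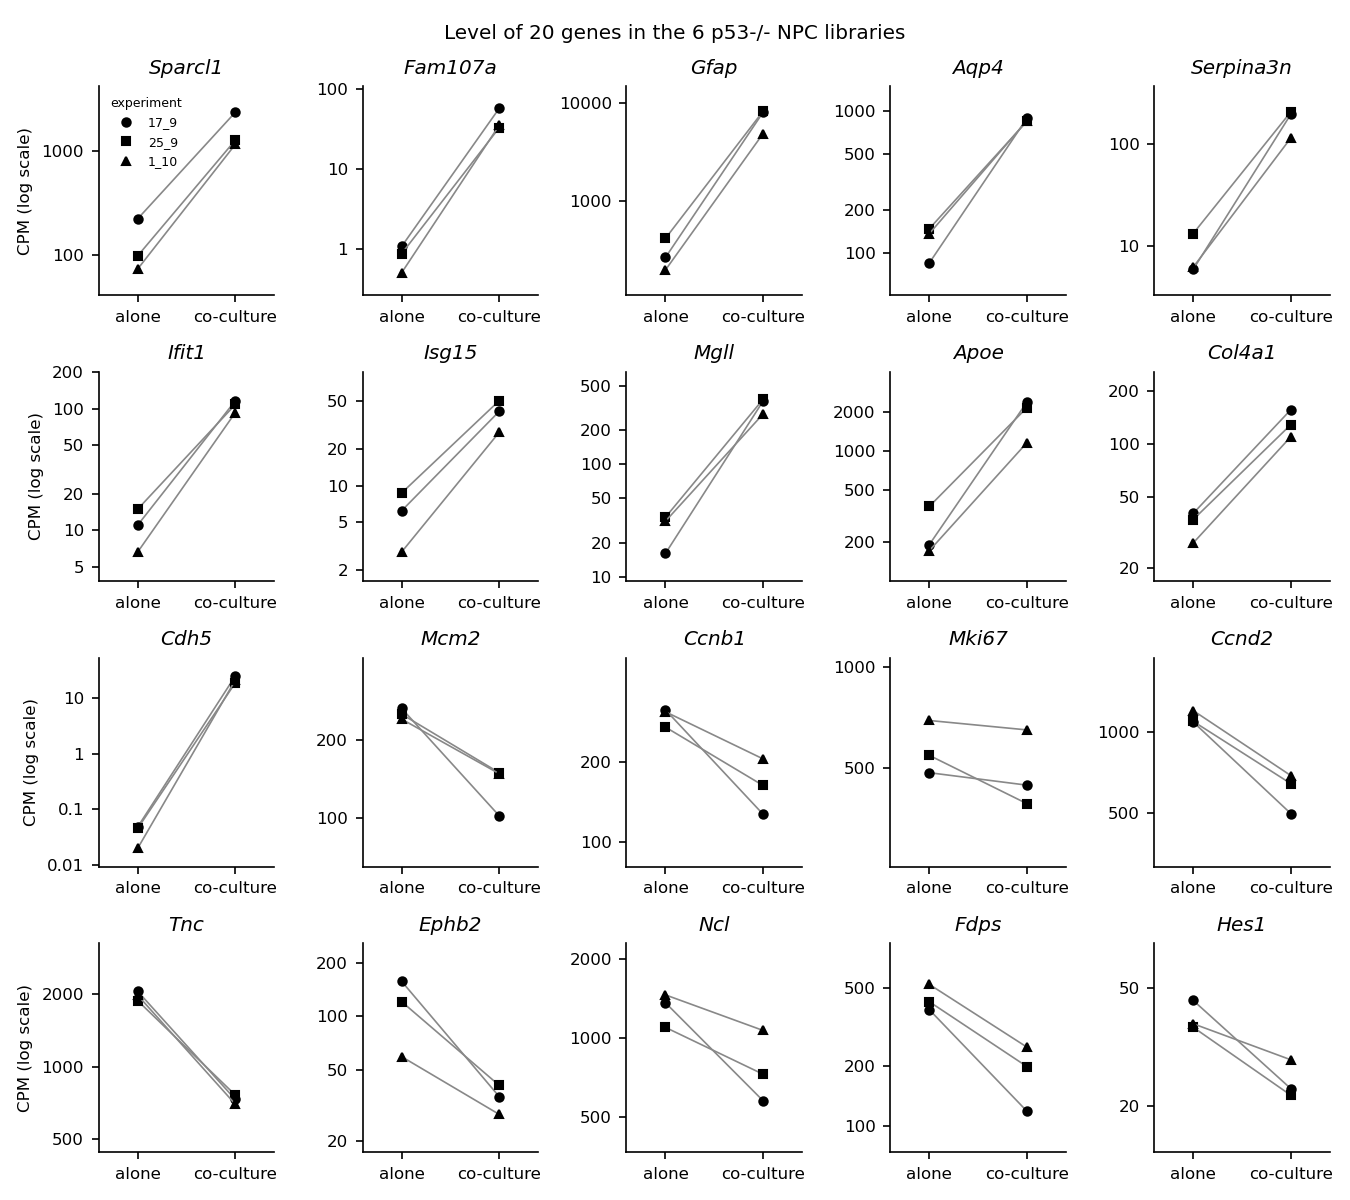
Level of 20 genes in each p53-/- library (CPM, log scale), alone on the left and in co-culture on the right of each panel, with lines joining the libraries of the same experiment (circle 17_9, square 25_9, triangle 1_10). A value of 0 is drawn at 0.02 CPM (Cdh5 alone in 1_10). The first 11 genes rise in every pair, and of the rest Mki67 is the gene whose 2 groups overlap.

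Genes of proliferation fell almost without exception. All 52 tested genes of DNA replication were called lower, with a median log2 fold change of -0.92 (median of all tested genes, -0.006), and the libraries of both groups did not overlap for 47 of them (21.5% of all tested genes were lower without overlap). Mcm2, a subunit of the replicative helicase, was at 265, 252 and 241 CPM alone and at 102, 150 and 148 CPM in co-culture (log2 fold change -0.95 ± 0.15, adjusted p = 0.000328). Tk1, the thymidine kinase of the salvage pathway, was at 84.6, 70.2 and 78.7 CPM alone and at 24.5, 33.4 and 39.3 CPM in co-culture. The sliding clamp Pcna and the ribonucleotide reductase subunit Rrm2 fell by 0.95 and 0.89 on the log2 scale. The largest drop of these 4 genes was in the pair of 17_9.

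Of 65 tested genes of mitosis, 61 were called lower and 1 higher, with a median of -0.77. Ccnb1, the cyclin that drives entry into mitosis, was at 312, 269 and 307 CPM alone and at 127, 163 and 205 CPM in co-culture. Its partner Cdk1 was at 316, 228 and 303 CPM alone and at 105, 128 and 164 CPM in co-culture (adjusted p = 0.000442). For both, every co-culture library was below every alone library. The 3 members that missed the threshold were Mki67, Cenpf and Casc5. Mki67, the proliferation antigen Ki-67, was at 484, 545 and 693 CPM alone and at 444, 391 and 650 CPM in co-culture, and the groups overlapped (log2 fold change -0.24 ± 0.18, adjusted p = 0.289). It was nonetheless lower in each of the 3 pairs, and was called lower without experiment 17_9 (-0.28, adjusted p = 0.0459). Pttg1, the securin that holds back sister chromatid separation, was the member called higher, at 22.6, 19.4 and 19.5 CPM alone and 34.1, 28.7 and 27.3 CPM in co-culture.

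The regulators of the cell cycle were mixed. Over all tested genes, 24.3% were called higher and 23.2% lower. Among 15 cyclins and cyclin-dependent kinases, 9 were called lower and none higher (1 higher when counts were scaled by library size alone). Ccne1, the cyclin of the G1/S transition, was at 42.4, 42.5 and 51.1 CPM alone and at 15.9, 24.1 and 27.9 CPM in co-culture. The D-type cyclins Ccnd1 and Ccnd2, which link growth factors to the cycle, fell by 0.61 and 0.89 on the log2 scale. Of 16 CDK inhibitors and pocket proteins, 3 were called higher, namely Cdkn2b (log2 fold change 0.63), Rb1 (0.68) and Rbl2 (0.56), the last 2 being members of the retinoblastoma family that represses E2F genes. Another 6 were called lower, among them Rbl1 and Lin9, of which 3 were called without the alone library of 17_9, 5 without experiment 17_9 and 1 without experiment 25_9. Cdkn1b, Cdkn1c and Cdkn2a, the inhibitors p27, p57 and p16/p19, changed by -0.11, -0.10 and -0.11 with adjusted p of 0.411 to 0.745. Among 21 E2F and Myc factors, 13 were called lower, such as E2f1 (36.1, 25.1 and 21.9 CPM alone and 12.3, 15.3 and 14.9 CPM in co-culture) and Mycn (18.6, 8.47 and 6.94 CPM alone and 2.86, 4.52 and 3.31 CPM in co-culture). Of the 4 called higher, Mxd1, Mxd4 and Mxi1 encode antagonists of Myc that compete for Max. Mxd1 was at 11.2, 10.7 and 7.60 CPM alone and at 27.0, 20.0 and 18.3 CPM in co-culture. Of 12 replication-dependent histone genes, whose mRNAs mostly lack the poly(A) tail that these libraries select, 3 were called higher and 1 lower, and none of the 3 without the block.

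Promoters of 4 genes are shown because the letters of known elements can be read in them. Ccnb1 fell with most of the mitosis list, and Mki67 is a member of that list that missed the threshold. The promoters of Isg15 and Ifit1 are given further on. The sequences are from RefSeq, build GRCm38.p6, 150 bases up to the base before the annotated start, on the strand of the gene. The 250 bases before the start were searched on both strands, and a match is a description of the letters and not of a bound site. In the mitosis list, 52 of 65 genes had a window. CCAAT, the box bound by the factor NF-Y, was in 38 of the 52 (73.1%), against 37.5% of the 27025 genes in the table, and TTTGAA, the core of the cell cycle homology region, was in 22 (42.3% against 18.3%). The promoters of Mki67 (chr7:135716380-135716529, minus strand) and Ccnb1 (chr13:100786487-100786636, minus strand) follow, with CCAAT and TTTGAA in capitals.
Mki67: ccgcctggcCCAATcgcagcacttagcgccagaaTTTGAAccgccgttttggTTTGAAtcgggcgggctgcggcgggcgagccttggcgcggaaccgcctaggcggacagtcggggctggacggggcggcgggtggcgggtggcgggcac
Ccnb1: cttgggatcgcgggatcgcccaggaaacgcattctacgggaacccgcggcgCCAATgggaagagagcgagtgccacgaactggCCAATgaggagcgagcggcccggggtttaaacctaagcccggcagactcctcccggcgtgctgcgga
Both genes hold CCAAT, and Mki67 also holds TTTGAA at 2 places. In the DNA replication list, the E2F forms TTTCCCGC and TTTGGCGC were each in 3 of 42 windows (7.14%), against 1.03% and 0.485% of all genes.

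Astroglial genes rose as a group. Of 52 tested genes of type-B and astroglial identity, 45 were called higher and 3 lower, with a median log2 fold change of 1.34. Gfap, the intermediate filament of astrocytes and type-B cells, was at 264, 414 and 197 CPM alone and at 8006, 8209 and 4853 CPM in co-culture (log2 fold change 4.60 ± 0.16, adjusted p = 1.68e-08). Sparcl1, a secreted matricellular protein of astrocytes, was at 223, 98.8 and 74.0 CPM alone and at 2338, 1265 and 1152 CPM in co-culture. Both were higher in every co-culture library than in any alone library, by far more than the spread within a group. Transporters and channels of mature astrocytes moved the same way. The glutamate transporter Slc1a2 was at 87.2, 200 and 184 CPM alone and at 1496, 1130 and 1245 CPM in co-culture, and the water channel Aqp4 was at 85.1, 148 and 137 CPM alone and at 891, 849 and 857 CPM in co-culture. The gap junction protein Gja1 (log2 fold change 1.71) and the secreted protease inhibitor Cst3 (2.34) rose too. The members called lower were Tnc, a matrix protein of the stem cell niche, Sparc and the brain lipid-binding protein Fabp7. Tnc was at 2050, 1875 and 1975 CPM alone and at 730, 761 and 697 CPM in co-culture, while Fabp7 lost its call without the alone library of 17_9 (adjusted p = 0.0286 with it, 0.084 without it and 0.0878 without experiment 17_9).

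Factors of stem and progenitor cells changed less. Of 30 tested, 3 were called higher (10%) and 6 lower (20%), against 24.3% and 23.2% of all tested genes. The median was 0.07. Nes, the intermediate filament nestin, was at 1882, 1417 and 1429 CPM alone and at 833, 988 and 1168 CPM in co-culture (adjusted p = 0.00432). Sox2, Pax6 and Nr2e1, transcription factors that maintain neural stem cells, changed by 0.18, 0.05 and 0.07 on the log2 scale with adjusted p of 0.275 to 0.720. The surface marker Prom1 was at 16.1, 14.7 and 20.8 CPM alone and at 17.5, 15.9 and 19.6 CPM in co-culture, and the groups overlapped. Hopx, a gene of quiescent stem cells, rose from 3.44, 2.10 and 0.832 CPM to 6.56, 10.7 and 3.36 CPM, although the lowest co-culture library lay below the highest alone library.

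Genes of activated and transit-amplifying cells were called lower in 8 of 22 and higher in 1, the immediate early gene Fos. Over all tested genes, 24.3% were called higher and 23.2% lower. The homeobox factor Gsx1 was at 9.93, 5.33 and 2.44 CPM alone and at 1.30, 1.71 and 1.08 CPM in co-culture. Without the alone library of 17_9, 2 of the 22 were called lower, and without experiment 17_9, 6 were. Egfr and Dlx2, which mark activated stem cells and their progeny, changed by -0.10 and -0.27 on the log2 scale (adjusted p of 0.573 and 0.207), and Egfr was called lower without experiment 17_9 (-0.30, adjusted p = 0.0401). In the neuroblast list, 7 of 21 were called higher (33.3%) and 5 lower (23.8%), the latter becoming 3 without that library or without its experiment. Cd24a, a surface protein of neuroblasts and ependymal cells, was at 281, 227 and 325 CPM alone and at 120, 113 and 149 CPM in co-culture. Mapt, the microtubule protein tau, moved the other way, from 18.3, 36.2 and 21.6 CPM to 133, 117 and 83.6 CPM. Dcx, the defining neuroblast gene, was low in both groups, at 0.921, 0.547 and 0.610 CPM alone and 1.55, 1.76 and 0.922 CPM in co-culture (adjusted p = 0.0216, and 0.0606 without the block). In the oligodendrocyte list, 9 of 23 were called higher, such as the myelin gene Cnp (log2 fold change 1.28), and 5 were called higher without the alone library of 17_9 and 7 without the experiment. The 4 called lower include the factor Olig2, at 473, 612 and 637 CPM alone and 303, 336 and 408 CPM in co-culture, and the PDGF receptor Pdgfra (-0.59). Of 22 ependymal genes, 4 were called higher (18.2%) and 2 lower (9.09%), and 10 higher without experiment 17_9. Foxj1, the master factor of motile cilia, was at 55.4, 38.8 and 28.6 CPM alone and at 43.2, 54.9 and 40.8 CPM in co-culture (adjusted p = 0.322), and was called higher without the alone library of 17_9 (0.46, adjusted p = 0.00607) and without the experiment (0.52, adjusted p = 0.00061).

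**Figure D4:**
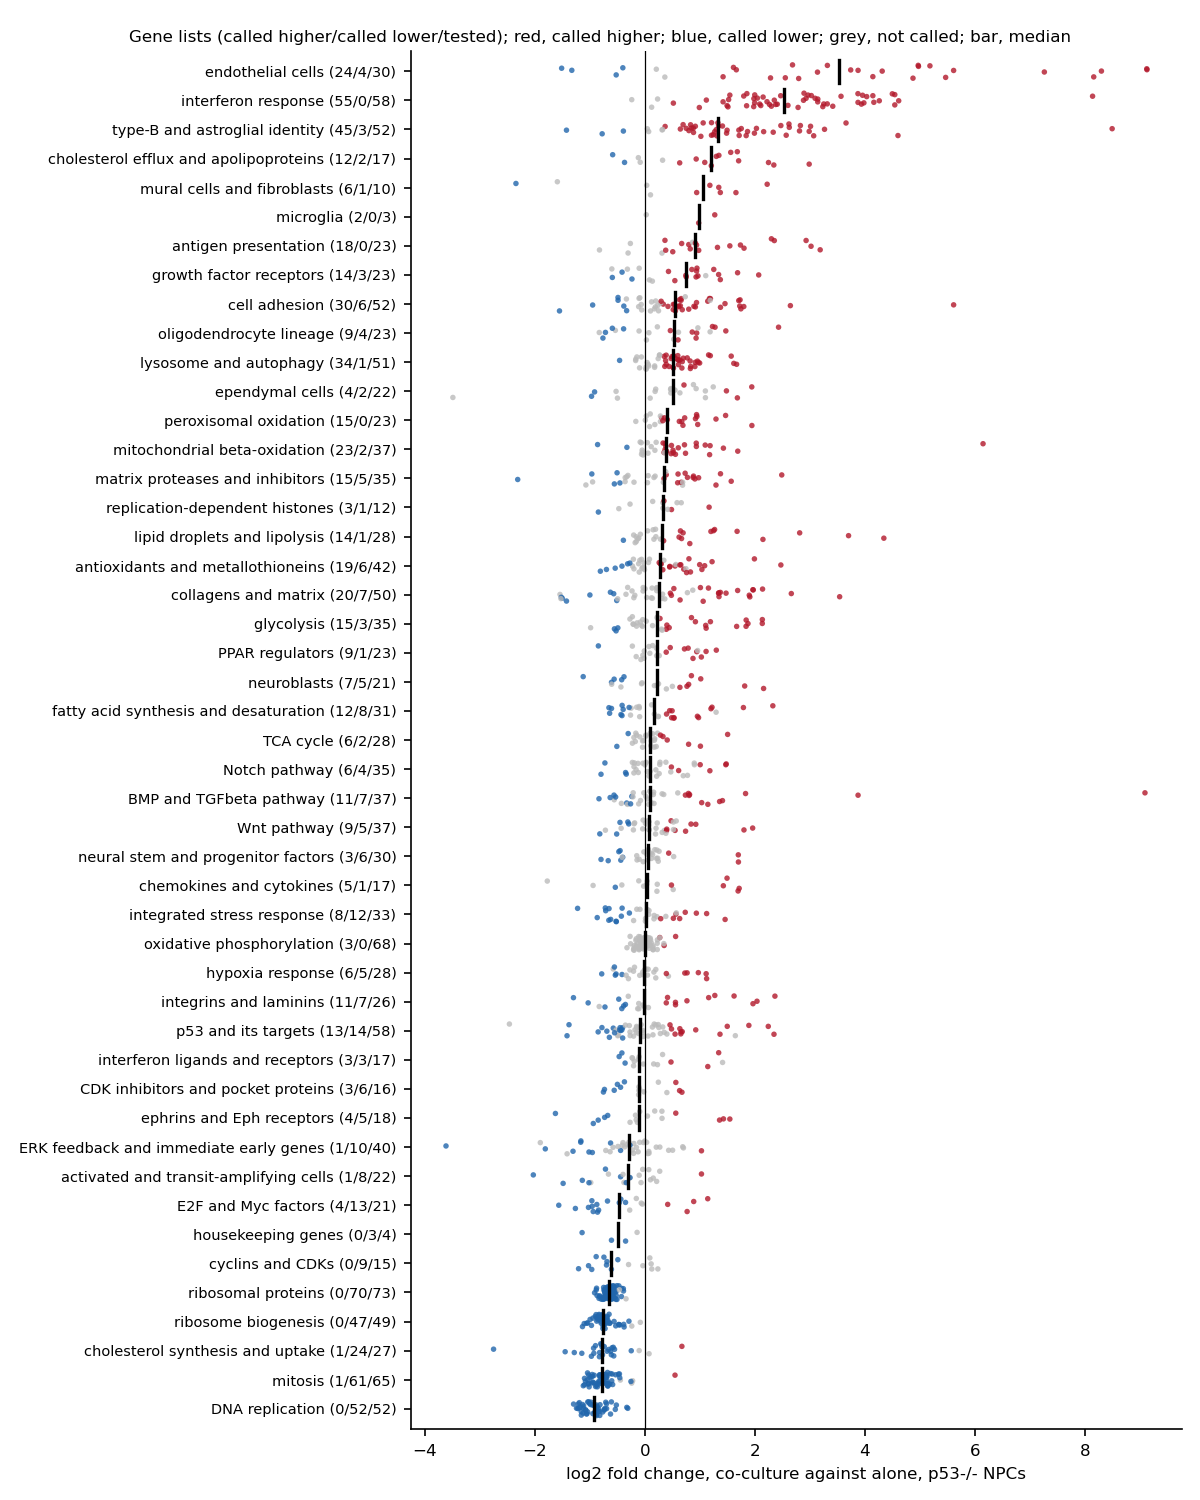
Log2 fold change of co-culture against alone in p53-/- NPCs for the tested members of each gene list, ordered by median (black bar). Red points were called higher, blue points lower and grey points neither, and the numbers after each name are the members called higher, called lower and tested, from 24, 4 and 30 for endothelial cells at the top to 0, 52 and 52 for DNA replication at the bottom. Lists share genes, and values of members with no count alone, such as Acvrl1 in the BMP list, depend on the prior count of the fit.

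Interferon-response genes formed the list with the most uniform rise. Type I interferon signals through JAK kinases to transcription factors that switch on antiviral genes. Of 58 tested members, 55 were called higher and none lower, with a median log2 fold change of 2.54. Over the alternatives 54 to 59 were called higher (without a filter more members were tested), and none lower. The 3 that missed the threshold were Irf1, Samhd1 and Ifitm2. For 54 members every co-culture library was above every alone library (23.3% of all tested genes). Irf7, the factor that amplifies the response, was at 1.41, 3.14 and 1.33 CPM alone and at 29.6, 32.3 and 23.2 CPM in co-culture (log2 fold change 3.88 ± 0.21, adjusted p = 1.55e-07). The effectors rose likewise. Isg15, a ubiquitin-like modifier, was at 6.20, 8.70 and 2.83 CPM alone and at 41.2, 50.5 and 27.7 CPM in co-culture. Ifit1, which binds foreign RNA, was at 11, 14.9 and 6.60 CPM alone and at 117, 109 and 93.0 CPM in co-culture. Bst2, tetherin, was at 7.80, 8.43 and 5.33 CPM alone and at 77.5, 67.8 and 57.3 CPM in co-culture. Ifit, Oas and related genes have close copies, and how reads were split between them is uncertain.

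In the promoter windows of 44 of the 58 interferon-response genes, GAAANNGAAA, the interferon-stimulated response element, was found in 17 (38.6%), against 3.46% of the 27025 genes in the table. Isg15 (chr4:156200819-156200968, minus strand) and Ifit1 (chr19:34640739-34640888, plus strand) are shown with the element in capitals.
Isg15: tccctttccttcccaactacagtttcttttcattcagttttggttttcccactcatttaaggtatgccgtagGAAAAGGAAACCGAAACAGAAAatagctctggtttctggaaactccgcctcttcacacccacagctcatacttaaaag
Ifit1: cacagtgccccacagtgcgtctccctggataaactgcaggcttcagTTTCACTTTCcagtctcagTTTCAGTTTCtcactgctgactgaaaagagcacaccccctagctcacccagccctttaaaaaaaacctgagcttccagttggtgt
Isg15 holds 3 overlapping copies on the strand of the gene, and Ifit1 holds 2 on the other strand.

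Of the genes that make, sense or transmit interferon, 3 of 17 were called higher (17.6%) and 3 lower (17.6%). Over all tested genes, 24.3% were called higher and 23.2% lower. The double-stranded RNA sensor Tlr3 was at 27.8, 33.3 and 48.9 CPM alone and at 86.6, 79.0 and 112 CPM in co-culture, whereas the receptor subunit Ifnar2 fell by 0.36 on the log2 scale. Antigen presentation rose in 18 of 23 genes and none was called lower (at most 1 over the alternatives). The peptide transporter Tap1 was at 6.15, 8.11 and 6.16 CPM alone and at 35.9, 36.6 and 28.5 CPM in co-culture. B2m, the light chain of MHC class I, was at 84.4, 83.4 and 77.9 CPM alone and at 244, 225 and 248 CPM in co-culture. The 5 members that were not called are the class II genes H2-Ab1, H2-Eb1 and H2-DMa and the chaperones Calr and Pdia3. Among 17 chemokines and cytokines, 5 were called higher, with Cxcl14 at 9.50, 9.06 and 7.82 CPM alone and at 30.2, 31.3 and 25.3 CPM in co-culture, and 1 lower, the receptor Cxcr4 (adjusted p = 0.0144, which became 0.062 without the alone library of 17_9, 0.000598 without the experiment and 0.175 without the block).

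Genes of fatty acid oxidation rose by small steps. Of 37 tested genes of mitochondrial β-oxidation, 23 were called higher and 2 lower, with a median log2 fold change of 0.38, and 13 were called higher without experiment 25_9. Acsl6, which couples long-chain fatty acids to CoA, was at 42.1, 49.7 and 55.1 CPM alone and at 145, 123 and 128 CPM in co-culture. Cpt1c, the brain form of carnitine palmitoyltransferase 1, was at 30.1, 38.3 and 36.3 CPM alone and at 72.6, 69.7 and 58.3 CPM in co-culture (log2 fold change 0.94 ± 0.11, adjusted p = 5.82e-05). Its relative Cpt1a, which controls entry of fatty acids into mitochondria in most tissues, was at 207, 241 and 239 CPM alone and at 260, 230 and 221 CPM in co-culture, and the groups overlapped. Hadha, the trifunctional enzyme, rose by 0.37. The acyl-CoA synthetases Acsl4 and Acsl5 were called lower (-0.86 and -0.33), but Acsl5 lost its call in 11 of 19 alternatives. Its adjusted p of 0.0223 became 0.0681 without the alone library of 17_9, 0.0968 without the experiment and 0.139 without the block. Of 23 genes of peroxisomal oxidation, 15 were called higher and none lower, nor was any lower under the alternatives run (10 to 16 higher). The phytanoyl-CoA hydroxylase Phyh was at 15.6, 11.6 and 19.4 CPM alone and at 62.2, 52.4 and 63.1 CPM in co-culture.

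The regulators of these pathways followed in part. Of 23 PPAR receptors, coactivators and partners, 9 were called higher and 1 lower. Ppara, the nuclear receptor for fatty acids, was at 2.76, 5.69 and 6.05 CPM alone and at 10.5, 9.69 and 10.2 CPM in co-culture (log2 fold change 1.11 ± 0.25, adjusted p = 0.00329). The coactivator Ppargc1a was at 42.4, 49.5 and 57.9 CPM alone and at 108, 77.1 and 93.5 CPM in co-culture. The coactivator Pprc1 fell by 0.85. Ppard was called higher (0.39, adjusted p = 0.0147), but not without the alone library of 17_9 (0.0665), without the experiment (0.0535) or without the block (0.06). Among 28 genes of lipid droplets and lipolysis, 14 were called higher and 1 lower. Mgll, the monoacylglycerol lipase that ends lipolysis and degrades an endocannabinoid, was at 16.1, 33.8 and 31.1 CPM alone and at 365, 379 and 280 CPM in co-culture. Pnpla2, the triglyceride lipase that starts it, rose by 0.65.

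Of 31 genes of fatty acid synthesis and desaturation, 12 were called higher (38.7%, all tested genes 24.3%) and 8 lower (25.8%, all tested genes 23.2%). The latter count was 3 without experiment 25_9, 3 without experiment 1_10 and 4 without the block, and the former was 8, 12 and 11. Thrsp, a regulator of lipogenesis, was at 13.1, 17.4 and 16.9 CPM alone and at 100, 69.1 and 70.1 CPM in co-culture, whereas Acly, which makes cytosolic acetyl-CoA, was at 489, 631 and 705 CPM alone and at 320, 411 and 438 CPM in co-culture. Fasn, the fatty acid synthase, changed by -0.10 (adjusted p = 0.576). Cholesterol synthesis and uptake fell in 24 of 27 genes, with a median of -0.77. Fdps, which makes farnesyl diphosphate, was at 387, 424 and 519 CPM alone and at 119, 199 and 250 CPM in co-culture (log2 fold change -1.28 ± 0.13, adjusted p = 1.42e-05). The squalene epoxidase Sqle fell by 0.83 on the log2 scale. The gene called higher was Npc1, which moves cholesterol out of lysosomes. The sterol element TCACNCCAC was in 0 of the 18 promoter windows of this list, and in 1.22% of all genes.

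Cholesterol efflux and apolipoprotein genes rose in 12 of 17, with 2 called lower and a median of 1.21. Apoe, the main apolipoprotein of astrocytes, was at 191, 376 and 171 CPM alone and at 2403, 2178 and 1168 CPM in co-culture (log2 fold change 2.99 ± 0.19, adjusted p = 4.11e-07). The cholesterol exporter Abca1 was at 202, 171 and 127 CPM alone and at 771, 425 and 347 CPM in co-culture. Lcat, which esterifies cholesterol in lipoproteins, was at 10.5, 8.06 and 5.77 CPM alone and at 54.2, 39.8 and 29.7 CPM in co-culture.

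In glucose metabolism, 15 of 35 glycolysis genes were called higher and 3 lower. Aldoc, the aldolase of astrocytes, was at 396, 395 and 373 CPM alone and at 1733, 1428 and 1079 CPM in co-culture, and the pyruvate dehydrogenase kinase Pdk4, which diverts pyruvate from the TCA cycle, was at 6.98, 7.15 and 5.72 CPM alone and at 48.9, 23.6 and 20.0 CPM in co-culture. The lactate dehydrogenase Ldha (-0.52), the hexokinase Hk2 (-0.55) and the phosphofructokinase Pfkl (-0.49) were the 3 called lower. Pfkl, with an adjusted p of 0.0104, missed the threshold without the alone library of 17_9 (0.0533) and passed it without the experiment (0.0365). The TCA cycle had 6 of 28 called higher (21.4%) and 2 lower (7.14%), against 24.3% and 23.2% of all tested genes. Oxidative phosphorylation had 3 of 68 called higher and none lower, with a median of -0.006. Over the alternatives, 1 to 8 of the 68 were called higher and 0 to 5 lower.

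The translation machinery fell. Of 73 ribosomal protein genes, 70 were called lower, with a median of -0.65, and of 49 genes of ribosome biogenesis 47 were called lower, with a median of -0.76. Nop56, a core protein of the small nucleolar particles that modify ribosomal RNA, was at 246, 206 and 256 CPM alone and at 82.0, 114 and 141 CPM in co-culture. Ncl, nucleolin, was at 1361, 1097 and 1458 CPM alone and at 577, 728 and 1068 CPM in co-culture. Rpl17, of the large subunit, fell by 0.88 on the log2 scale. None of the genes in either list was called higher under any alternative run. Ribosomal protein genes have many pseudogene copies, so their single values are uncertain. Reference genes fell as well: of Gapdh, Actb, Hprt and Tbp, only Gapdh missed the threshold (Tbp did too without experiment 17_9, adjusted p = 0.0527, and without the block, 0.0775), and Hprt was at 77.6, 44.5 and 81.2 CPM alone and at 22.6, 27.6 and 40.0 CPM in co-culture. Scaling moved the median of all tested genes to between -0.006 and 0.063, and none of these genes changed sign.

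Lysosome and autophagy genes rose in 34 of 51, with 1 called lower. Ctsb, the lysosomal protease cathepsin B, was at 315, 268 and 210 CPM alone and at 996, 825 and 563 CPM in co-culture, and Ctsd rose by 0.91. Among 42 antioxidant and metallothionein genes, 19 were called higher and 6 lower, and the metal-binding Mt2 was at 83.8, 50.5 and 28.1 CPM alone and at 416, 323 and 156 CPM in co-culture. The integrated stress response had 8 of 33 called higher (3 without experiment 25_9) and 12 lower. Its factor Atf4 was at 290, 213 and 226 CPM alone and at 143, 159 and 140 CPM in co-culture, and the folate enzyme Mthfd2 fell by 1.22. The cystine transporter Slc7a11 was called higher, at 23.2, 25.4 and 41.4 CPM alone and 82.6, 61.5 and 98.7 CPM in co-culture. Of 28 hypoxia genes, 6 were called higher (21.4%) and 5 lower (17.9%), and Vegfa changed by 0.05 (adjusted p = 0.791). Known targets of p53 were called higher in 13 (22.4%) and lower in 14 (24.1%) of 58, with a median of -0.09. Without experiment 25_9 these counts were 7 and 9. Over all tested genes, 24.3% were called higher and 23.2% lower, so the shares of both lists were near those of all genes. Casp1, which is also an interferon-inducible gene, was at 2.81, 1.05 and 1.17 CPM alone and at 9.42, 7.18 and 7.81 CPM in co-culture, and Kitl, the ligand of Kit, was at 230, 173 and 198 CPM alone and at 67.6, 72.2 and 89.2 CPM in co-culture. Mdm2, the ubiquitin ligase of p53, changed by -0.28 (adjusted p = 0.102).

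Signaling pathways showed no common direction, and over all tested genes 24.3% were called higher and 23.2% lower. Of 35 Notch genes, 6 were called higher and 4 lower. The receptor Notch1 was at 322, 375 and 327 CPM alone and at 366, 332 and 332 CPM in co-culture, and the target Hes1 was at 45.4, 36.9 and 37.9 CPM alone and at 22.9, 21.8 and 28.7 CPM in co-culture. The ligand Jag1 fell by 0.80 (adjusted p = 0.0158), with values of -0.48 (0.112) without the alone library of 17_9 and -0.39 (0.00926) without the experiment. Notch4, a receptor of endothelial cells, rose by 1.48 and the E3 ligase Dtx1 by 1.47. Of 37 BMP and TGFβ genes, 11 were called higher and 7 lower, the latter becoming 4 without that library and 3 without the experiment. Bmpr1b, a type I BMP receptor, was at 35.0, 45.2 and 47.4 CPM alone and at 97.8, 87.3 and 96.9 CPM in co-culture. Acvrl1, a receptor of endothelial cells, had no count alone and 202 in co-culture, at least 70-fold higher against the floor of 3 counts. The BMP targets Id1 and Id3 changed by 0.12 and 0.31 (adjusted p of 0.821 and 0.119). Without experiment 17_9 both were called higher, Id1 by 0.89 (adjusted p = 3.97e-05) and Id3 by 0.58 (adjusted p = 0.000477), and Id3 also without its alone library (0.53, adjusted p = 0.0107).

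The ERK feedback and immediate early genes were called lower in 10 of 40 (25%) and higher in 1 (2.5%). Over all tested genes, 23.2% were called lower and 24.3% higher, so the share called lower was near that of all genes. The feedback inhibitor Spry1 was at 149, 78.8 and 71.9 CPM alone and at 43.3, 41.2 and 45.0 CPM in co-culture, and Phlda1 was at 71.0, 47.0 and 53.7 CPM alone and at 22.8, 25.6 and 26.9 CPM in co-culture. The phosphatase Dusp6 was at 430, 189 and 162 CPM alone and at 122, 111 and 148 CPM in co-culture. Without the alone library of 17_9, 3 of the 40 were called lower, and without all of experiment 17_9, 11 were called lower and 14 higher. Fos, the gene called higher, was at 132, 36.6 and 22.8 CPM alone and at 132, 93.2 and 84.4 CPM in co-culture, so it was higher in experiments 25_9 and 1_10 and level in 17_9 (adjusted p = 0.00974, and 0.356 without the block). Growth factor receptors rose in 14 of 23 and fell in 3. Ntrk2, the BDNF receptor TrkB of astrocytes and neurons, was at 488, 581 and 532 CPM alone and at 1478, 1350 and 1246 CPM in co-culture, and Osmr, the oncostatin M receptor, was at 5.86, 6.33 and 5.27 CPM alone and at 28.9, 24.5 and 20.8 CPM in co-culture. Fgfr1 and Igf1r changed by 0.08 and 0.14 (adjusted p of 0.574 and 0.509). Of 37 Wnt genes, 9 were called higher and 5 lower, with the secreted Dickkopf family member Dkk3 at 10.8, 9.75 and 5.49 CPM alone and 45.1, 30.4 and 26.5 CPM in co-culture.

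Genes of cell contact moved in both directions. Of 18 ephrins and Eph receptors, 4 were called higher and 5 lower. These shares were near those of all tested genes, of which 24.3% were called higher and 23.2% lower. The receptor Ephb2 was at 158, 121 and 59.5 CPM alone and at 35.5, 41.0 and 28.2 CPM in co-culture (log2 fold change -1.63 ± 0.20, adjusted p = 7.23e-05). The ligand Efnb2 was called lower too (adjusted p = 0.0251), but not without the alone library of 17_9 (0.152) or the experiment (0.0516). Efnb3 rose by 1.55. Of 52 adhesion genes, 30 were called higher and 6 lower, with 20 higher without that library and 27 without the experiment. Igsf11, a homophilic adhesion protein, was at 42.9, 41.9 and 32.4 CPM alone and at 148, 132 and 127 CPM in co-culture, and Vcam1, a surface protein of quiescent type-B cells, was at 110, 102 and 134 CPM alone and at 170, 178 and 190 CPM in co-culture. The neural cadherin Cdh2 changed by -0.06 (adjusted p = 0.681).

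In the matrix, 20 of 50 genes of collagens and other matrix proteins were called higher and 7 lower. Over all tested genes, 24.3% were called higher and 23.2% lower. The basement membrane collagens Col4a1 and Col4a2 were at 40.7, 37.5 and 27.7 CPM and at 10.5, 9.52 and 7.99 CPM alone, and at 156, 129 and 110 CPM and 41.6, 34.3 and 33.3 CPM in co-culture. Both are also made by endothelial cells, whose markers moved with them. Hapln1, which links hyaluronan to proteoglycans, was at 0.533, 0.455 and 0.388 CPM alone and at 4.46, 5.98 and 5.86 CPM in co-culture. Of 26 integrins and laminins, 11 were called higher and 7 lower, which became 7 and 2 without experiment 25_9. Itga4, a receptor for fibronectin and Vcam1, was at 35.5, 33.0 and 52.0 CPM alone and at 16.8, 16.2 and 26.2 CPM in co-culture. Itgb1 was called lower (-0.35, adjusted p = 0.0219, and 0.0695 without the block) with overlapping groups, and Itga6, a laminin receptor, changed by -0.13 (adjusted p = 0.333). The coating differed too, laminin for NPCs alone and a cell layer for co-culture, and this cannot be told apart from the presence of bmvECs. Of 35 proteases and inhibitors, 15 were called higher and 5 lower, with Adam19 at 204, 273 and 306 CPM alone and 121, 125 and 152 CPM in co-culture, and the inhibitor Timp3 at 155, 137 and 137 CPM alone and 228, 241 and 257 CPM in co-culture.

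The response was then set beside that of p53+/+ NPCs, whose libraries are separate, by the interaction term of the same model. At an adjusted p under 0.05 the effect of co-culture was more positive in p53-/- NPCs for 3 genes (0.0218% of the tested genes) and more negative for 8 (0.0582%), while 1870 genes had an unadjusted p under 0.05. The counts moved with the fit, and by DESeq2 with the block they were 205 and 70. Of the 8, 6 are interferon-response genes of the list above: Isg15, Ifit1, Rtp4, Oasl2, Oasl1 and Xaf1. The other 2 are I830012O16Rik and Trim47, the latter outside the rule for named genes. In co-culture Isg15 was at 39.8 ± 11.5 CPM in p53-/- and 38.8 ± 6.98 CPM in p53+/+ (SD, n = 3), and Ifit1 was at 106 ± 11.9 CPM and 116 ± 10.9 CPM. Alone, Isg15 was at 5.91 ± 2.95 CPM against 0.892 ± 0.341 CPM and Ifit1 was at 10.8 ± 4.15 CPM against 1.37 ± 0.849 CPM. The log2 fold change of Isg15 was thus 2.79 in p53-/- and 5.48 in p53+/+ (interaction -2.69 ± 0.30, adjusted p = 0.00429). Over the list, the interaction was below 0 in 52 of 58 genes, with a median of -0.82, against 52.6% of all tested genes.

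Among the genes with a more positive effect in p53-/- NPCs was Mki67. It was at 574 ± 108 CPM alone and 495 ± 137 CPM in co-culture, against 747 ± 177 CPM and 210.5 ± 90.7 CPM in p53+/+ NPCs, where its log2 fold change was -1.88 (interaction 1.64 ± 0.25, adjusted p = 0.0468). Ticrr, a factor that starts replication, differed in the same direction (interaction 1.02 ± 0.16, adjusted p = 0.0493). In the mitosis list the median log2 fold change was -0.77 in p53-/- and -1.59 in p53+/+, and the interaction was above 0 in 63 of 65 genes. In the DNA replication list the medians were -0.92 and -1.32, with 47 of 52 above 0. Of the genes in these lists, Mki67 alone passed the threshold over all genes. The astroglial list had medians of 1.34 and 1.53, and none of its 52 genes passed. The endothelial list had medians of 3.53 and 3.84, again with none.

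**Figure D5:**
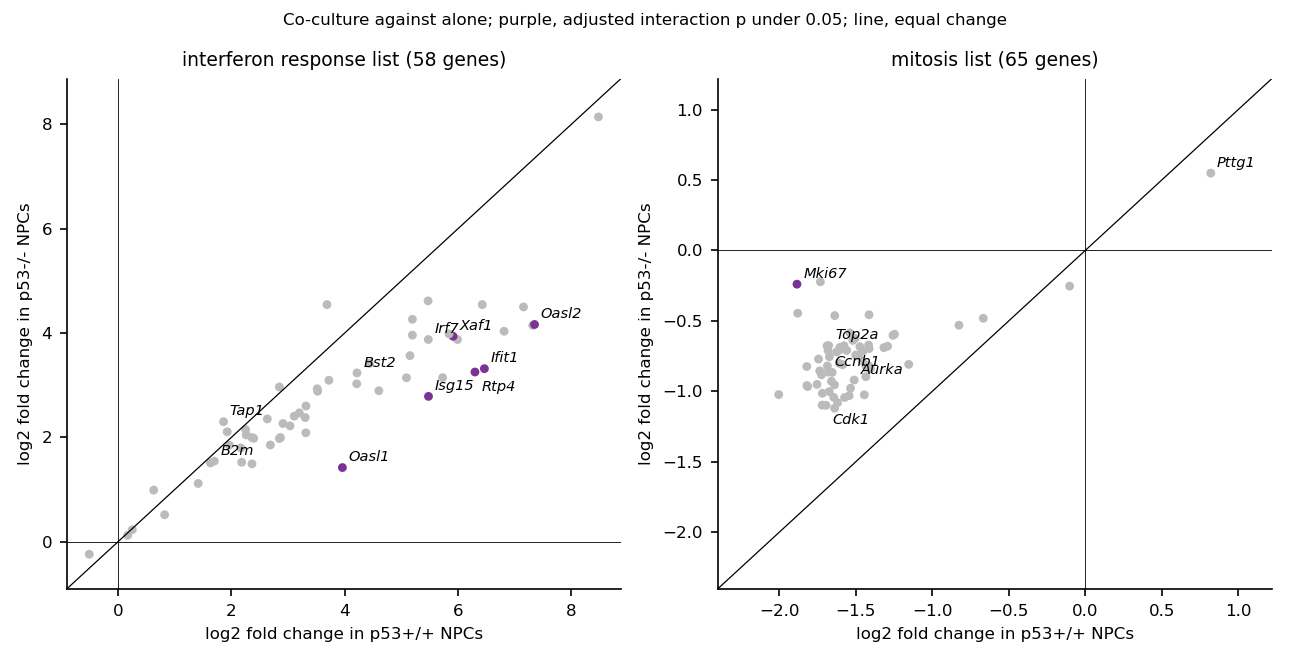
Log2 fold change of co-culture against alone in p53-/- NPCs (vertical axis) and in p53+/+ NPCs (horizontal axis) for the tested genes of the interferon-response list (left, 58 genes) and the mitosis list (right, 65 genes). The line marks equal change and purple points have an adjusted interaction p under 0.05: 6 interferon genes lie below the line, and Mki67 lies above it, as do 62 other mitosis genes.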

How the data were processed

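The authors mapped the reads with TopHat2 2.0.11 on mm9, and HTSeq 0.6.1 gave the deposited raw counts. Strand setting and annotation version were not given in the sources used, so overlapping and antisense genes are uncertain. Each library was mapped to its group by the key of the study's count table, which also states that equal numbers mark paired experiments. Deviations from the group means correlated in the 18 same-number pairs of libraries (r 0.101 to 0.644), against r -0.654 to 0.295 in the 36 others.

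A quasi-likelihood model of edgeR 4.0.16 (R 4.3.3) with group and experiment terms was fitted to all 12 libraries (6 residual degrees of freedom), after filterByExpr and TMM scaling. P-values were adjusted by Benjamini-Hochberg over all tested genes, with a threshold of 0.05. CPM use TMM-scaled library sizes. SE is the log2 fold change divided by the root of F. Total counts limit the precision of low genes. Symbols turned into dates (27) were not named, and some genes that meet the naming rule are not reported here.

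The members and gene lists were chosen with earlier results of these data known. Genes named are the 10 largest called changes on each side at or above 2 in mean log2 CPM and alike in 3 pairs, up to 3 called members on each side of a list by p, key genes of each list, the 5 largest called interactions on each side, and a few stated as picked after their values were seen or filling a count. Alternatives were no replicate block, only 6 libraries, DESeq2 1.42.0, 3 other scalings, 2 filters, a threshold of 0.01 and leaving out libraries. The fits were also run on simulated counts with fewer changed genes than here, which checks the code and not these calls. Libraries of a group differed by 13.3 to 62.6 times the counting variance, so none was a copy. Figures used matplotlib 3.10.9.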

Additional observations from a re-analysis of the deposited data

Results flagged for a closer look

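The effect of co-culture differed between p53-/- and p53+/+ NPCs in the interaction term for 10 named genes. It was lower in p53-/- for Oasl2 (-3.19, adjusted p = 0.0159), Ifit1 (-3.15, 0.00429), Rtp4 (-3.05, 0.00429), Isg15 (-2.69, 0.00429), Oasl1 (-2.54, 0.0493), I830012O16Rik (-2.24, 0.0417) and Xaf1 (-1.98, 0.0417), all on the log2 scale by edgeR. It was higher for Ggta1 (1.93, 0.0493), Mki67 (1.64, 0.0468) and Ticrr (1.02, 0.0493). Each gene kept its sign in all 18 alternatives. Rtp4 and Oasl2 passed the threshold in 17 of them, Isg15 and Ifit1 in 16, Ggta1 and Xaf1 in 11, Mki67 and I830012O16Rik in 10, Ticrr in 8 and Oasl1 in 6. Without the replicate block, Isg15 had an adjusted p of 0.367, Mki67 of 0.659, and Rtp4 of 0.00784. Ggta1 was at 0.935 ± 0.204 CPM alone in p53-/- NPCs and at 12.3 ± 3.36 CPM alone in p53+/+ NPCs (SD, n = 3).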

How the results depend on the processing

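Of the named genes, none changed sign where it was called, over up to 19 alternatives. They kept their side of the threshold in 5661 comparisons, lost it in 320 and gained it in 22. Without the replicate block, which the study's numbering gives as pairs, 2586 genes were called higher and 2341 lower. Genes called lower numbered 2061 at an adjusted p under 0.01, and 1826 to 3086 when a library or an experiment was left out (1826 without experiment 25_9). Those over 2-fold lower then numbered 113 to 426. Interaction calls were the least stable. Higher in p53-/-, they numbered 205 by DESeq2 with the replicate block, 9 by DESeq2 without it, 0 without the block in edgeR, 0 under 0.01, 31 with no filter and 0 to 105 with libraries left out. Lower, they numbered 70, 16, 5, 4, 18 and 1 to 58 in the same order, and 5 when scaled by library size alone. Scaling put 51.1% to 58.3% of calls on the higher side. The cause of these shifts was not tested. Of the list counts, 1536 stayed within 1.5 times and 288 did not, most of them counts under 10. Depth limits genes near the floor of 3 counts.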

Other observations

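Oxidative phosphorylation genes, of which 3 of 68 changed in p53-/- NPCs, were called higher in 22 of 68 in p53+/+ NPCs. Their interaction was below 0 in 68 of 68, with a median of -0.20 on the log2 scale, and in 59 of 68 with a median of -0.14 when libraries were scaled by size alone. None of the 68 passed the threshold over all genes by edgeR, and 5 had an unadjusted p under 0.05. Ribosomal protein genes showed the same sign in 72 of 73, with a median of -0.15. Over all tested genes, 52.6% were below 0.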
